A study of Homo sapiens with 10 samples.

Results

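HepG2 is a human liver tumour line that makes many hepatocyte proteins, and the comparison described here set HepG2 cells carrying a decoy for the miR-17 family against HepG2 cells carrying a control decoy. The members are the 6 HepG2 libraries of the 10 in the series, chosen by their labels: 3 with the miR-17 decoy (miR-17 TuD) and 3 with the negative control decoy (NC TuD). The other libraries come from SK-Hep1 cells and were not fitted here except as an alternative. Both arms were exposed for 48 h to decoy-carrying lentivirus (5 infectious particles per cell, polybrene 10 µg/mL), and puromycin at 1 µg/mL selected each for 2 weeks. Resistant colonies were pooled into a stable line, so each arm is 1 pooled line, and both arms carry an integrated vector and its resistance gene. Medium held 10% serum and no other agent is named. Libraries were built from 150 ng of total RNA and read as 50 bp pairs. The labels do not say whether the 3 replicates of an arm were separate cultures, so the p-values measure only the spread between these libraries, which may be technical. The decoy and the separate history of the 2 lines cannot be told apart.

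MicroRNAs guide Argonaute proteins to messenger RNAs, mostly through pairing of the seed, a short stretch near the microRNA's 5′ end, with a site in the 3′ untranslated region (3′UTR). The messenger RNA is then translated less and decays faster, so blocking the microRNA can raise the transcripts that carry its sites. The miR-17 family comes from related gene clusters, is induced by MYC, and is known for restraining cell cycle inhibitors and TGF-beta receptors in tumours, liver tumours among them. A tough decoy (TuD) is a stabilised hairpin RNA with exposed binding sites that ties up microRNAs of matching sequence.

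The 6 members of the family share a seed at bases 2 to 8, in capitals below as in RefSeq (positions on GRCh38), and differ from each other only at other bases. They are shown because the site analysis searched for the letters complementary to that seed, with or without a following A.
hsa-miR-17-5p: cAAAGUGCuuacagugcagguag
hsa-miR-20a-5p: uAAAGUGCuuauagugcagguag
hsa-miR-106b-5p: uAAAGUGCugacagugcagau
hsa-miR-93-5p: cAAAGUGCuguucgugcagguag
hsa-miR-106a-5p: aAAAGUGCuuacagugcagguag
hsa-miR-20b-5p: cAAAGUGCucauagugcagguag
The first 2 lie on chromosome 13, at chr13:91350618-91350640 and chr13:91351072-91351094 on the plus strand, miR-106b and miR-93 lie on chromosome 7 within MCM7, and the remaining 2 lie on chromosome X. Neighbours in the same cluster or with a near seed served for contrast: the seed of miR-18a differs from that of miR-17 by 1 base, and the seed of miR-372 is that of miR-17 shifted along by 1 base.
hsa-miR-18a-5p: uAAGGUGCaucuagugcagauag
hsa-miR-19b-3p: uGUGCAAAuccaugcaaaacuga
hsa-miR-372-3p: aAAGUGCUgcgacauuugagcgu
An 8mer site for miR-17 is GCACTTTA, a 7mer-m8 is GCACTTT, a 7mer-A1 is CACTTTA and a 6mer is CACTTT. Each gene was placed by its best match in its longest annotated 3′UTR. The microRNAs themselves and the decoy transcripts were not measured in these counts, so the extent of the block is not known. MCM7, the host gene of miR-106b and miR-93, had 347, 354 and 344 CPM in miR-17 TuD and 360.2, 343 and 355 CPM in NC TuD. The arms overlapped, and MCM7 did not pass the test (-0.02 ± 0.04, adjusted p = 0.776).

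Each library held 12884225 to 14944252 gene counts, and a count of 0 allows up to 3 counts, or 0.201 to 0.233 CPM (counts scaled to the same library total). Intervals and floors cover counting error only. The root mean square log2 distance over well-counted genes was 0.108 to 0.145 within an arm and 0.183 to 0.227 between arms. The first principal component held 57.9% of the variance and separated the arms. All 12 hepatocyte markers were present in every library (2 called higher and 7 lower), with a summed level of 49306 to 51686 CPM in miR-17 TuD and 56404 to 58695 CPM in NC TuD. Of 12 endothelial markers, KDR, TEK, ERG and EMCN had 0 counts, as did COL1A2, LUM, FAP and POSTN among 12 fibroblast markers and PTPRC and CD3E among 12 blood markers. Others on these lists were counted: over the 6 libraries LYZ had 197464 counts (called lower), CD68 4584, ESAM 1895 (called higher), ENG 368 (called higher), and PDGFRB 1722. Of 12 genes associated with SK-Hep1, CAV1 had 26 counts, CD44 26 and IL1B 10 over all 6 libraries, while LGALS1 (5967) was well counted in HepG2 too.

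The first question was which transcripts differed between the arms. Of 11926 genes tested, 2329 (19.5%) were called at an adjusted p below 0.05, 1312 (11.0%) higher in miR-17 TuD and 1017 (8.53%) lower. Most differences were small. The median log2 fold change was 0.31 among genes called higher and -0.20 among genes called lower, 1511 calls were under 1.25-fold, and a change of 2-fold or more was measured for 96 risers and 20 fallers. The arms did not overlap for 2208 of the 2329 calls, and for 33.9% of all genes tested. The direction of calls differed by abundance: where the average log2 CPM was 7 or more, 12.01% rose and 22.1% fell, while between 1 and 4 the shares were 11.2% and 3.52%. The number of calls was 1536 without NC TuD replicate 1, against 2329 with all libraries. The number of lower calls was 620 without that library and 616 without miR-17 TuD replicate 1.

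**Figure D1:**
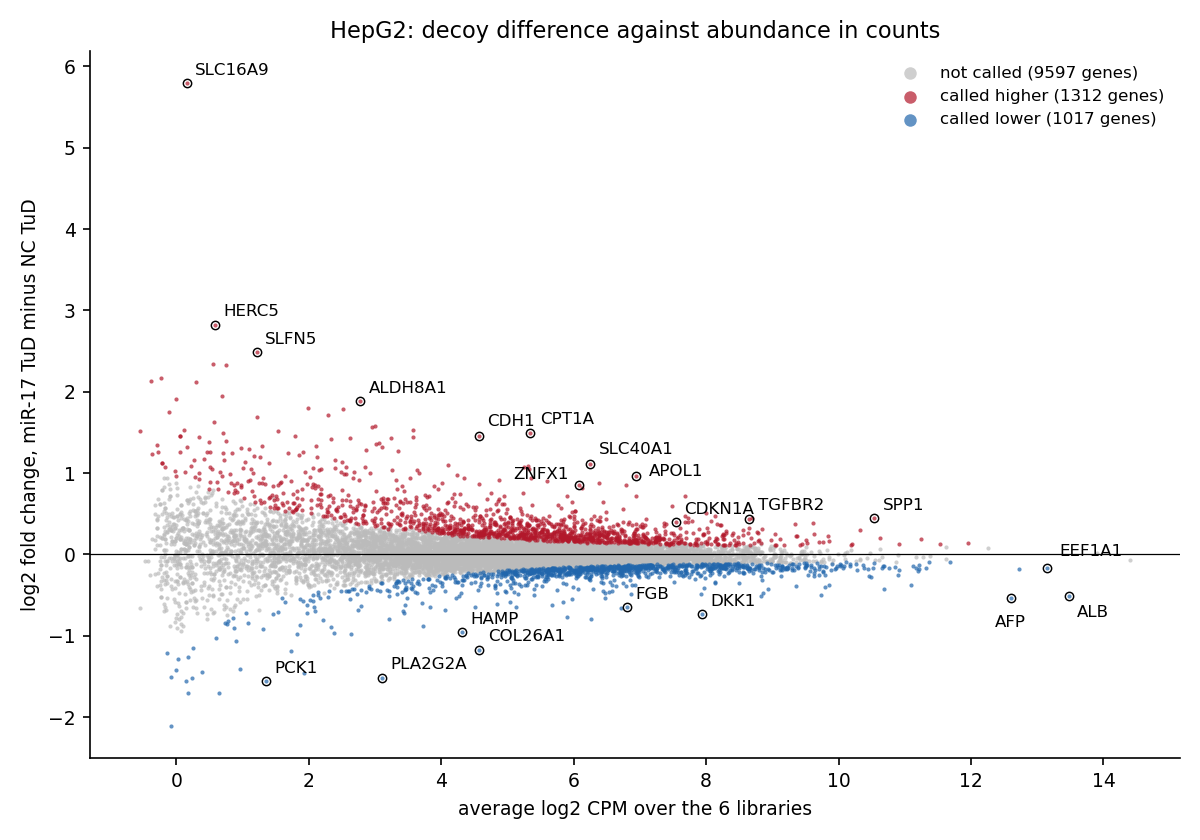
Log2 fold change (miR-17 TuD minus NC TuD, vertical) against average log2 CPM (horizontal) for the 11926 tested genes, red for the 1312 called higher, blue for the 1017 called lower and grey for the rest. The highest points sit at low abundance, where SLC16A9 had 1 count in the NC TuD arm and its plotted value depends on the fit's prior, while ALB and AFP stand apart among the abundant genes that fell.

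The genes with the smallest adjusted p among those that rose included enzymes, transporters and adhesion molecules. CPT1A, the gatekeeper of mitochondrial fatty acid burning, had 59.02, 61.8 and 56.4 CPM in miR-17 TuD and 19.96, 21.97 and 20.9 CPM in NC TuD. Every miR-17 TuD library was above every NC TuD library, by 2.83-fold on average (log2 fold change 1.50 ± 0.07, adjusted p = 1.08e-17). APOL1, an apolipoprotein of HDL that lyses trypanosomes, had 164, 166 and 156 CPM in miR-17 TuD and 82.4, 85.05 and 82.5 CPM in NC TuD, and the gap between the arms was far wider than the spread within them (0.96 ± 0.05, adjusted p = 5.52e-17). SLC40A1, ferroportin, the only known iron exporter, had 99.9, 97.4 and 113 CPM in miR-17 TuD and 45.1, 50.5 and 47.9 CPM in NC TuD, with replicate 3 the highest of its arm and no overlap (1.11 ± 0.06). CDH1, the adhesion molecule E-cadherin, had 36.2, 34.5 and 32.2 CPM in miR-17 TuD and 11.8, 12.2 and 13.5 CPM in NC TuD, again without overlap (1.46 ± 0.08, adjusted p = 3.64e-15). KRT23, a type I keratin, rose from 155 ± 2.44 to 255 ± 5.59 CPM. GPR56, an adhesion receptor, rose by 1.09 ± 0.07 on the log2 scale. CD24, a surface glycoprotein of progenitor and tumour cells, rose from 78.3 ± 6.88 to 142 ± 1.44 CPM, and SDPR, a caveola coat protein also called cavin-2, from 92.02 ± 2.16 to 152 ± 3.75 CPM. All 4 had arms that did not overlap.

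By fold, the list was led by genes of low count. SLFN5, a Schlafen family gene, had 4.36, 3.38 and 3.15 CPM in miR-17 TuD and 0.793, 0.236 and 0.864 CPM in NC TuD. ALDH8A1, an aldehyde dehydrogenase of tryptophan breakdown, had 10.3, 10.52 and 10.49 CPM in miR-17 TuD and 3.03, 3.39 and 2.09 CPM in NC TuD, a rise of 3.70-fold. DSC3, a desmosomal cadherin, had 7.47, 7.21 and 6.74 CPM in miR-17 TuD and 1.73, 2.83 and 2.02 CPM in NC TuD. In each the lowest miR-17 TuD library was above the highest NC TuD library. Rises of 1.52 to 1.80 on the log2 scale were measured for FLRT3, an adhesion protein (1.80), TNNI2, a troponin subunit (1.79), EFR3B (1.69), IGFBP7, a secreted IGF-binding protein (1.57), KLF7, a zinc finger transcription factor (1.57), BCAS1 (1.53) and IL8, the neutrophil chemokine (1.52). By difference in CPM the largest gain was in SPP1, the secreted phosphoprotein osteopontin, which went from 1258 ± 37.7 to 1717 ± 34.4 CPM (0.45 ± 0.03). TF, transferrin, came next, from 3780.0 ± 36.3 to 4165 ± 27.5 CPM (0.14 ± 0.03, adjusted p = 0.00147), but its call was lost on the deposited log2 matrix (adjusted p = 0.0536) and with all 10 libraries in 1 fit (adjusted p = 0.278). ACTB (beta actin, 0.12 ± 0.03, adjusted p = 0.0104) lost its call on that matrix and without replicate 2 of either arm. C3, the central complement protein, went from 2274 ± 80.9 to 2589.6 ± 35.1 CPM (0.19 ± 0.03), and FLNA (filamin A, 0.30 ± 0.04) and KRT8 (keratin 8, 0.20 ± 0.04) were also among the 6 genes with the largest gains.

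**Figure D2:**
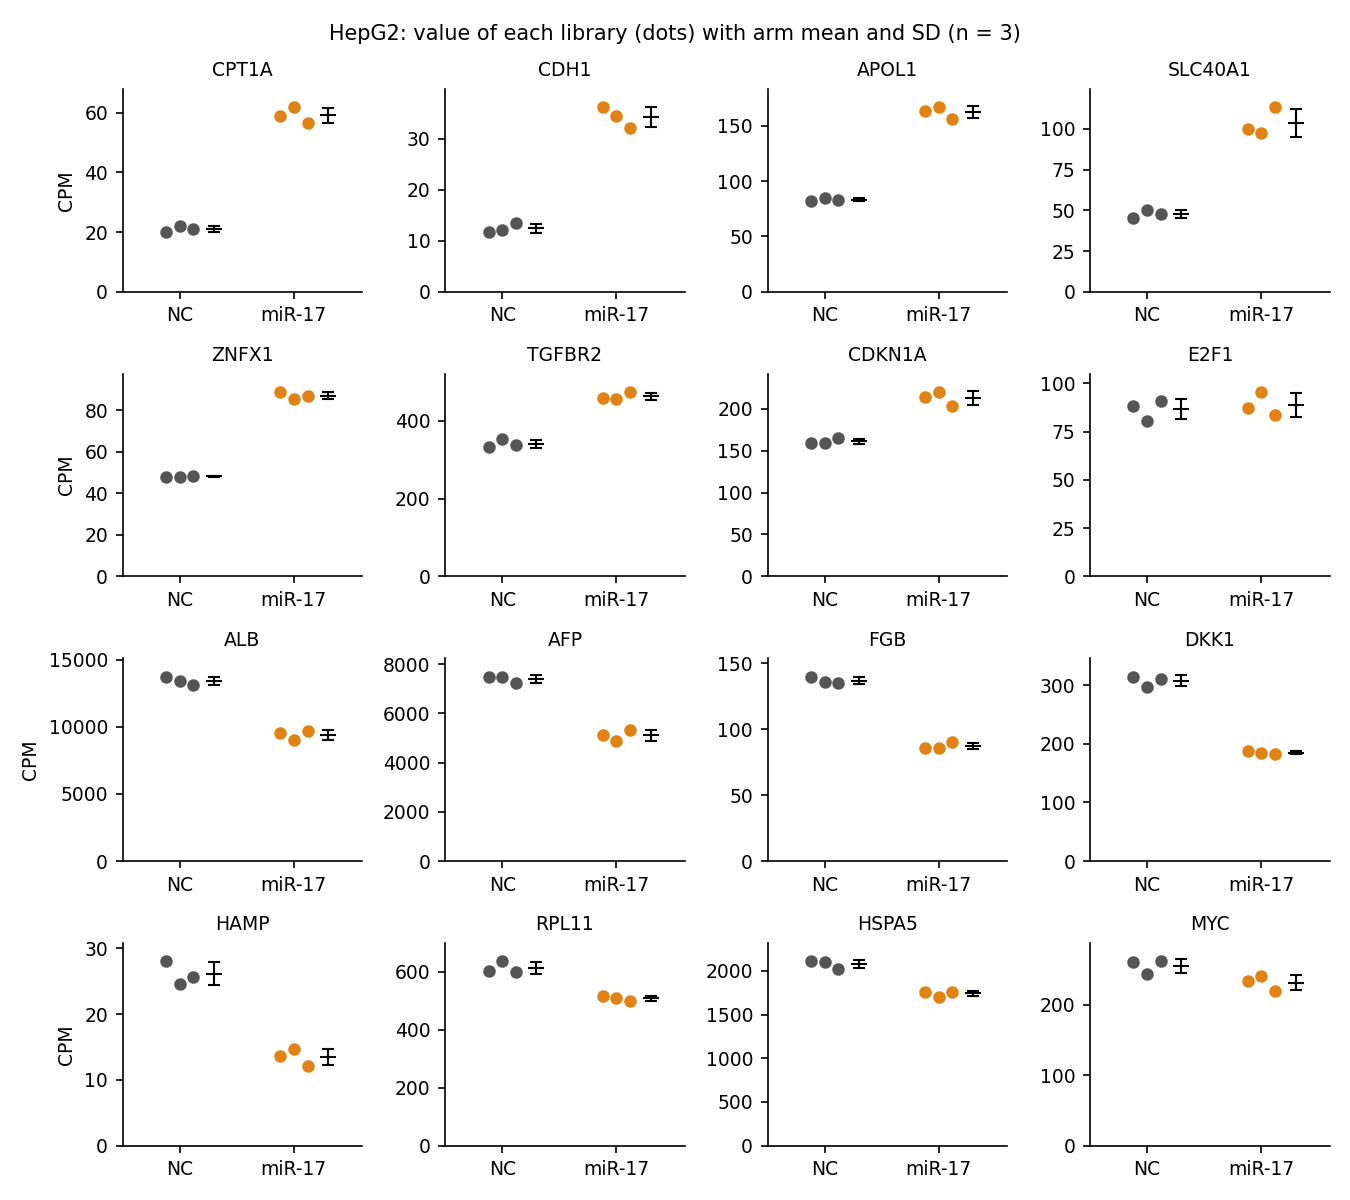
CPM of each library (dots, vertical axis from 0) for 16 genes, grey for NC TuD and orange for miR-17 TuD, with the mean and SD of each arm (n = 3) as a bar beside them. CPT1A and CDH1 are far apart between the arms, E2F1 overlaps, and ALB, AFP, FGB, DKK1 and HAMP are lower in all 3 miR-17 TuD libraries.

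Among the genes that fell, secreted liver proteins and a Wnt antagonist led. DKK1, a secreted Wnt antagonist that Wnt signalling itself induces, had 188, 184 and 183 CPM in miR-17 TuD and 315, 297 and 312 CPM in NC TuD. No libraries overlapped (-0.74 ± 0.04, adjusted p = 1.37e-15). ALB, albumin, had 9525, 9001 and 9657 CPM in miR-17 TuD and 13729, 13404 and 13136 CPM in NC TuD, and AFP, alpha-fetoprotein, its fetal relative, had 5104, 4869 and 5339 CPM in miR-17 TuD and 7482, 7494 and 7223 CPM in NC TuD. The log2 fold changes were -0.51 ± 0.03 and -0.54 ± 0.03, and both genes were lower in every miR-17 TuD library than in any NC TuD library. In bulk RNA, fewer cells that make a transcript and less of it per cell cannot be told apart. FABP1, the liver fatty acid binding protein, fell from 129 ± 6.12 to 81.8 ± 1.96 CPM (-0.66 ± 0.05). PRKAR1A, a regulatory subunit of protein kinase A, fell from 535 ± 16.7 to 377 ± 14.5 CPM (-0.51 ± 0.04), the imprinted zinc finger gene PEG3 from 1000.1 ± 28.2 to 707 ± 17.9 CPM, STMN3, a tubulin-binding stathmin, from 75.4 ± 3.41 to 44.1 ± 2.01 CPM, and FREM1, a basement membrane protein, from 97.04 ± 8.47 to 55.99 ± 1.22 CPM. The largest fold decreases were mostly in genes of low count. PCK1, the cytosolic gluconeogenesis enzyme, had 1.45, 1.13 and 1.12 CPM in miR-17 TuD and 3.75, 3.39 and 3.82 CPM in NC TuD. PLA2G2A, a secreted phospholipase, had 4.91, 4.57 and 3.75 CPM in miR-17 TuD and 12.8, 12.4 and 12.7 CPM in NC TuD, and HAMP, the iron hormone hepcidin, had 13.6, 14.6 and 12.1 CPM in miR-17 TuD and 28.03, 24.6 and 25.7 CPM in NC TuD. In all 3 the arms were well apart, with log2 fold changes of -1.56 ± 0.22, -1.51 ± 0.13 and -0.96 ± 0.09. COL26A1 (-1.17 ± 0.08), the folate enzyme ALDH1L2 (-1.46 ± 0.19), the retinol transporter STRA6 (-1.19 ± 0.20), the corepressor TLE4 (-0.98 ± 0.18), the procollagen protease ADAMTS2 (-0.98 ± 0.14), the transporter SLC17A2 (-0.97 ± 0.17) and GAS7 (-0.92 ± 0.22) were the others.

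The second question was whether the difference followed the seed sequence. A 3′UTR was searched for 11827 of the tested genes, of which 11.0% were called higher and 8.56% lower, with a median log2 fold change of 0.001. Of 643 genes with an 8mer, 167 (26.0%) were called higher and 27 (4.20%) lower, and their median was 0.072. Of 2348 genes whose best match was a 7mer-m8, 12.4% rose and 6.86% fell (median 0.012). For a 7mer-A1 the shares were 9.47% and 9.19% of 729 genes, for a 6mer 9.41% and 9.59% of 2147, and for no match 9.63% and 9.24% of 5960 genes (median -0.002). Among 41 genes with 2 or more 8mers, 16 rose and 1 fell, with a median of 0.127. The share that rose did not climb steadily with the number of 7mer-m8 sites in genes without an 8mer. It was 12.8% for 1 site, 10.5% for 2 and 13.3% for 3 or more. The interval between the 25th and 75th percentile of 8mer genes ran from -0.04 to 0.23, and that of genes without a match from -0.10 to 0.11. Genes with an 8mer made up 12.8% of those called higher, 2.67% of those called lower and 5.44% of all searched. Of the genes called higher, 59.5% had no 7mer or 8mer, against 74.8% of those called lower and 68.5% of all searched. Of the 96 that rose at least 2-fold, 7 had an 8mer.

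**Figure D3:**
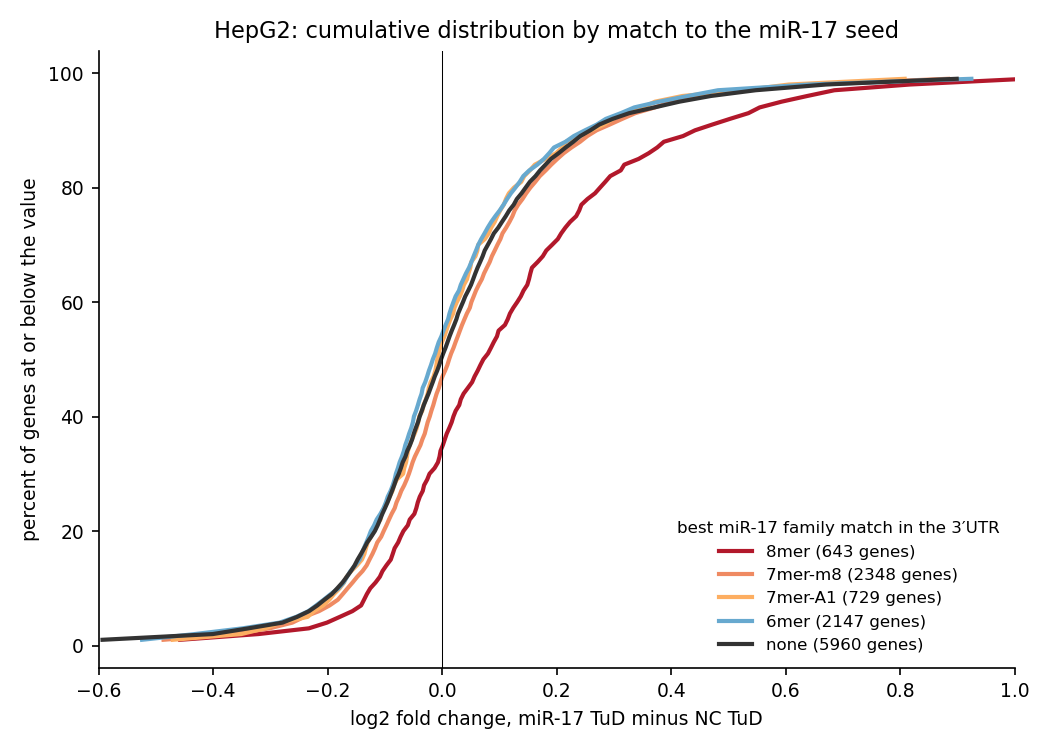
Cumulative percent of genes (vertical) at or below each log2 fold change (horizontal) by best miR-17 family match in the 3′UTR, plotted from the 1st to the 99th percentile. The curve of the 643 genes with an 8mer lies to the right of the others over most of its length, and the curves for 7mer-A1, 6mer and no match lie on each other.

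The length of the 3′UTR was set against the 8mer. Of the genes with an 8mer, 44.0% of 25 rose where the 3′UTR had up to 500 bases, 37.5% of 32 between 500 and 1000, 36.2% of 105 between 1000 and 2000, 25.8% of 236 between 2000 and 4000 and 18.4% of 245 above that. Genes without a match rose in 8.90% to 10.7% in the same bins. Base composition moved with the comparison as a whole: of genes whose 3′UTR had the lowest GC content (up to 34.7%) 7.14% rose and 12.2% fell, and of those with the highest (from 54.6%) 16.03% and 4.02%. Genes with an 8mer had a median GC content of 39.3%, against 47.3% for genes without a match. Within 5 bins of about equal gene number, from the lowest GC content to the highest, 23.2%, 16.9%, 24.1%, 33.7% and 52.4% of 8mer genes rose, against 5.34%, 6.39%, 7.89%, 10.6% and 14.1% of genes without a match. Coding sequence was searched among genes without a 3′UTR match. There 9 of 94 with an 8mer (9.57%) rose and 0 fell, and 14.2% of 360 with a 7mer-m8 rose and 5.28% fell. Of the 5506 with neither, 9.34% rose and 9.66% fell, so the share of coding 8mer genes that rose was near that of genes with neither. The 7mer-m8 class held a repeated context. Of 4794 such sites in all 3′UTRs searched, 1698 (35.4%) read cccaGCACTTTgg, which is the context of this match in the Alu repeat, and the next most frequent context held 2.80%. Of 646 tested genes whose 7mer-m8 sites were all in that context, 8.20% rose and 7.28% fell, while of 1400 with no site in it 15.4% rose and 6.14% fell (medians -0.005 and 0.026).

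The same search was made with 16 other microRNA seeds, among genes without a miR-17 family 7mer or 8mer. The share of 8mer genes called higher ran from 6.85% for miR-372 to 11.8% for miR-16, all well under the 26.0% of the miR-17 family. For the neighbours in the cluster it was 8.99% of 89 genes for miR-18a, 10.1% of 386 for miR-19 and 10.4% of 193 for miR-92a. For miR-122, the main hepatocyte microRNA, 8.28% rose and 10.8% fell of 157 genes. The largest shares called lower were for miR-21 (18.8% of 144 genes, median -0.041) and miR-26a (15.6% of 302 genes, median -0.034).

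**Figure D4:**
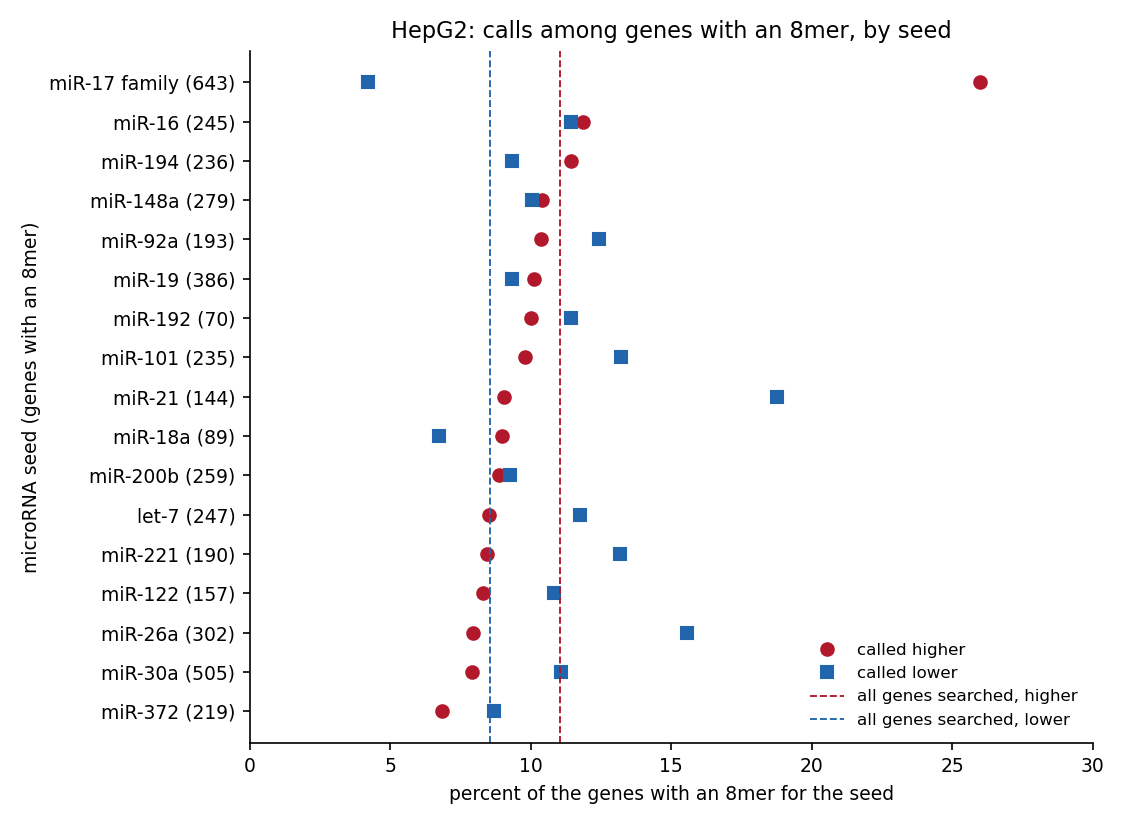
Percent of genes with an 8mer that were called higher (red circles) or lower (blue squares) for each microRNA seed, with the number of genes in brackets and dashed lines for all genes searched. The miR-17 family stands at 26.0% higher and 4.20% lower, and the other seeds, counted in genes without miR-17 family 7mers or 8mers, lie between 6.85% and 11.8% higher.

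The 8mer genes with the smallest adjusted p are shown with their sites, since these are the transcripts in which a seed match and a rise coincide. Each line runs 5′ to 3′ along the messenger RNA with the 8mer in capitals, from GENCODE 29 on GRCh38.
ISM2: tcagcaataaaGCACTTTAttttc
ZNFX1 site 1: cgctagagtaaGCACTTTAtctccaga
ZNFX1 site 2: gtctttactatGCACTTTAgcttataa
SEMA7A: ctcttctcaatGCACTTTAataatgta
TGFBR2: caataacatttGCACTTTAttaatgcc
FYCO1: catttggaattGCACTTTAattgatta
HN1: attaaaaagaaGCACTTTAtgtactgc
GALNT6: aggggccctagGCACTTTAgccttcac
TTC39C: acccagggtccGCACTTTAaaataaaa
NTN4: ccttgtataaaGCACTTTActacctac
TNFRSF21: gattattctgtGCACTTTAaatttact
AGFG2: gctcctgtcaaGCACTTTAgttagctg
SLC16A9: aggcgcctgaaGCACTTTAtaaacaca
All lie in annotated 3′UTRs. ISM2 (chr14:77474397-77474420, minus strand), a secreted isthmin family protein, had 104, 114 and 104 CPM in miR-17 TuD and 58.4, 55.8 and 60.5 CPM in NC TuD. ZNFX1 (chr20:49246768-49246794 and chr20:49245928-49245954, minus strand), an antiviral helicase that senses double-stranded RNA, had 88.8, 85.5 and 86.9 CPM in miR-17 TuD and 48.1, 47.9 and 48.6 CPM in NC TuD. SEMA7A (chr15:74409320-74409346, minus strand), a membrane-anchored semaphorin, had 87.3, 91.5 and 85.7 CPM in miR-17 TuD and 51.2, 49.3 and 50.1 CPM in NC TuD. In these 3 genes the arms were separated by many times the spread within an arm, with log2 fold changes of 0.88 ± 0.05, 0.85 ± 0.05 and 0.81 ± 0.05. FYCO1 (chr3:45918131-45918157, minus strand), which links autophagosomes to kinesin, had 47.1, 50.8 and 43.1 CPM in miR-17 TuD and 26.7, 27.95 and 28.7 CPM in NC TuD (0.76 ± 0.07). TGFBR2 (chr3:30691856-30691882, plus strand), the ligand-binding receptor for TGF-beta, had 458, 457 and 474 CPM in miR-17 TuD and 332, 353 and 338 CPM in NC TuD (0.44 ± 0.04, adjusted p = 7.67e-11). NTN4 (chr12:95658558-95658584, minus strand), a netrin of basement membranes, had 44.6, 43.9 and 41.97 CPM in miR-17 TuD and 30.05, 28.2 and 29.5 CPM in NC TuD (0.57 ± 0.07). None of these arms overlapped. GALNT6, which starts O-glycan chains, rose by 0.84, TTC39C by 0.68, HN1 by 0.44, AGFG2 by 0.38 and the death receptor gene TNFRSF21 by 0.31 on the log2 scale. SLC16A9, a carnitine and creatine transporter of the monocarboxylate family, had counts of 33, 18 and 29 in miR-17 TuD and 0, 0 and 1 in NC TuD. The ratio was 75.5, with an exact 95% counting interval of 13.2 to 3017, and it was the only called gene with 3 counts or fewer over an arm.

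An 8mer did not go with a rise in every gene. Of the 27 that fell, those with the smallest adjusted p include the following, shown for contrast.
SIRPA: acctctcataaGCACTTTAggaacaca
PPM1H: cccctcgggggGCACTTTAataaaaga
ACADSB: tcatggttattGCACTTTAtcctgaat
SIRPA (chr20:1938838-1938864, plus strand), the inhibitory receptor that binds CD47, had 41.2, 40.8 and 38.7 CPM in miR-17 TuD and 61.6, 57.1 and 66.2 CPM in NC TuD. It was lower in all 3 miR-17 TuD libraries (-0.62 ± 0.06, adjusted p = 2.91e-09). PPM1H, a protein phosphatase, was at -0.33 ± 0.05, and ACADSB, a dehydrogenase of isoleucine breakdown, at -0.23 ± 0.04.

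Genes reported elsewhere as targets of the family were taken in 5 lists by role, which had been compiled from general knowledge with earlier results of these data known. For comparison with every list count from here on, 11.0% of all genes tested were called higher and 8.53% lower. Among 12 genes of TGF-beta and BMP signalling, 4 rose and 1 fell (median 0.128). The receptors TGFBR2 and BMPR2 rose: BMPR2 had 59.99, 51.96 and 54.9 CPM in miR-17 TuD and 41.3, 41.1 and 44.6 CPM in NC TuD (0.39 ± 0.06). The BMP co-receptor RGMB rose from 16.2 ± 1.07 to 24.9 ± 1.65 CPM (0.63 ± 0.09) and ZFYVE9, the adaptor SARA, by 0.27. The activin receptor ACVR2B was lower in every miR-17 TuD library, with 27.1, 25.8 and 24.9 CPM in miR-17 TuD and 32.6, 32.1 and 35.4 CPM in NC TuD (-0.36 ± 0.07). ZFYVE9 and, below, KLF9 are named to complete a count and were chosen after their values were seen.

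Of 14 targets in the cell cycle list, 4 rose and 0 fell (median 0.091). CDKN1A, the cyclin-dependent kinase inhibitor p21, had 214, 219.9 and 204 CPM in miR-17 TuD and 159, 159.5 and 165 CPM in NC TuD. All 3 miR-17 TuD libraries were above the others (0.40 ± 0.04, adjusted p = 1.21e-08). CCND1, cyclin D1, rose from 480.2 ± 5.69 to 572 ± 6.09 CPM (0.25 ± 0.04) and FBXO31, a ubiquitin ligase subunit, by 0.19. TP53INP1, a stress protein induced by p53, was at 0.27 ± 0.08 (adjusted p = 0.0218), a call lost without replicate 1 of either arm, with DESeq2 and on the deposited log2 matrix (adjusted p up to 0.21). E2F1, the S phase transcription factor, had 87.1, 95.4 and 83.8 CPM in miR-17 TuD and 88.1, 80.7 and 90.6 CPM in NC TuD. The arms overlapped (0.04 ± 0.06, adjusted p = 0.7), and the sign turned without replicate 2 of either arm (log2 fold changes of -0.02 and -0.01). BCL2L11, the death protein BIM, had 33.97, 32.4 and 34.9 CPM in miR-17 TuD and 32.6, 31.97 and 32.8 CPM in NC TuD (0.06 ± 0.07, adjusted p = 0.63). Neither E2F1 nor BCL2L11 passed, and the arms overlapped for both.

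Of 16 targets in signalling and cell death 9 rose and 0 fell (median 0.188). MINK1, a kinase of the JNK pathway, had 139, 143 and 133 CPM in miR-17 TuD and 100.3, 106 and 113 CPM in NC TuD (0.38 ± 0.05). LIMK1, which phosphorylates cofilin, rose from 37.3 ± 2.82 to 50.1 ± 1.75 CPM (0.42 ± 0.07). JAK1 and STAT3, a cytokine receptor kinase and the transcription factor it activates, rose by 0.25 and 0.19, STAT3 from 152 ± 5.83 to 173 ± 3.66 CPM (adjusted p = 0.00191). Of 19 targets in autophagy, membrane traffic and metabolism 11 rose and 0 fell (median 0.266), and 13 of the 19 carry an 8mer. Besides FYCO1 they include ZFYVE26, a protein of lysosome reformation (0.41 ± 0.06), NAGK, the N-acetylglucosamine kinase (0.53 ± 0.08), and CROT, the peroxisomal carnitine octanoyltransferase, which had 21.6, 19.4 and 20.5 CPM in miR-17 TuD and 13.04, 14.5 and 12.2 CPM in NC TuD (0.63 ± 0.09). SQSTM1, the autophagy receptor p62, rose from 399 ± 9.91 to 480.0 ± 22.7 CPM (0.27 ± 0.04). Of 18 nuclear and RNA regulators 8 rose (5 without NC TuD replicate 1) and KLF9 fell by 0.41 on the log2 scale (median of the list 0.133). EGLN3, a prolyl hydroxylase that marks HIF proteins for decay, had 4.77, 5.30 and 4.35 CPM in miR-17 TuD and 1.87, 2.36 and 1.94 CPM in NC TuD, well separated (1.23 ± 0.19). MTF1, the metal-responsive transcription factor, rose by 0.47 and TNKS2, a tankyrase, by 0.31.

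Cell junction genes were among the lists with the most rises. Of 36 tested genes of tight, adherens and desmosome junctions, 17 (47.2%) rose and 0 fell, with a median of 0.139, and 1 of the 36 has a miR-17 8mer. Over all genes tested 11.0% rose and 8.53% fell. The list had a median coding length of 2211 bases, and 10.8% of all genes with 1557 to 2355 coding bases rose. CLDN6, an embryonic claudin, had 38.1, 40.04 and 35.7 CPM in miR-17 TuD and 18.8, 20.3 and 21.2 CPM in NC TuD (0.92 ± 0.08). CLDN1, a claudin that seals tight junctions, had 225, 225 and 249 CPM in miR-17 TuD and 170.0, 180.3 and 181 CPM in NC TuD (0.40 ± 0.05). The lowest miR-17 TuD library was above the highest control in both. EPCAM and KRT19 rose by 0.20 and 0.24. Genes of mesenchymal and smooth muscle cells moved the same way in 9 of 21 tested, with 1 lower (median 0.126): TAGLN, an actin-binding protein, had 96.7, 92.8 and 88.7 CPM in miR-17 TuD and 74.1, 65.8 and 68.04 CPM in NC TuD (0.42 ± 0.06), TPM1 (tropomyosin) rose by 0.35 and the smooth muscle actin gene ACTA2 by 0.36. Summed over 12 fibroblast markers, TAGLN and ACTA2 among them, the level was 153 to 164 CPM in miR-17 TuD and 122 to 132 CPM in NC TuD, with COL1A2, LUM, FAP and POSTN at 0. Only 4 of these markers were tested. TAGLN and ACTA2 rose, while the other 2, PDGFRB and RGS5, were not called and had log2 fold changes below 0. Of 41 genes of the matrix and its receptors 11 (26.8%) rose and 8 (19.5%) fell. HSPG2, perlecan, rose from 348 ± 26.6 to 476 ± 29.9 CPM (0.45 ± 0.05) and ITGB4, the hemidesmosome integrin, by 0.65, while COL26A1 and ADAMTS2 fell. The 3 detected cholangiocyte markers called in the comparison, KRT19, EPCAM and SPP1, all rose, whereas KRT7 had 30 counts and AQP1 0 counts over the 6 libraries. Summed over the 10 markers on that list the level was 2445 to 2520 CPM in miR-17 TuD and 1896 to 1971 CPM in NC TuD, and its part in the junction result was not tested.

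Part of each innate immunity list rose, where 11.0% of all genes tested were called higher and 8.53% lower. Of 31 interferon-stimulated genes tested 11 rose, 0 fell and 20 were not called (median 0.193). HERC5, the ligase for ISG15, had 1.59, 2.65 and 2.77 CPM in miR-17 TuD and 0.144, 0.394 and 0.432 CPM in NC TuD, SLFN5 is given above, and OAS1, a sensor of double-stranded RNA, had 11.9, 10.2 and 11.2 CPM in miR-17 TuD and 6.99, 7.09 and 6.62 CPM in NC TuD. No library of 1 arm reached the other in these genes (2.82 ± 0.37 and 0.68 ± 0.12). OAS3 rose by 0.31. Of 19 genes of antigen presentation 10 rose and 3 fell, and their summed level was 4826 to 4834 CPM in miR-17 TuD and 4927 to 4967 CPM in NC TuD, lower while most called members rose. NLRC5, which switches on class I genes, had 21.7, 20.5 and 19.3 CPM in miR-17 TuD and 11.2, 9.61 and 12.5 CPM in NC TuD (0.88 ± 0.10). The immunoproteasome subunits PSMB9 and PSMB8 rose by 1.06 and 0.48 and the class I chain HLA-B by 0.45. The 3 that fell are HLA-E, CANX and PDIA3, at -0.17, -0.14 and -0.13, named after their values were seen. Without replicate 1 of either arm 1 gene of the list fell. HLA genes resemble each other closely, so reads shared between them can be split or set aside in counting. Of 21 complement genes 10 rose and 0 fell (median 0.188), 5 without NC TuD replicate 1 and 6 without miR-17 TuD replicate 1. C8G, a chain of the membrane attack complex, had 7.54, 7.48 and 5.85 CPM in miR-17 TuD and 4.18, 3.70 and 4.18 CPM in NC TuD (0.79 ± 0.15), the protease C1S rose by 0.39 and VTN, vitronectin, by 0.22. Of 15 NF-kappaB driven cytokine genes 4 rose (2 without NC TuD replicate 1), among them BIRC3, an inhibitor of apoptosis (0.67 ± 0.16, not called on the deposited log2 matrix), while the chemokine gene CCL20 fell from 82.8 ± 3.51 to 67.4 ± 2.67 CPM (-0.30 ± 0.05).

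Secreted liver proteins moved in both directions, beside shares of 11.0% higher and 8.53% lower over all genes tested. The 3 fibrinogen chains, which clot under thrombin, fell together. FGB had 85.7, 85.98 and 90.1 CPM in miR-17 TuD and 139.7, 136 and 135 CPM in NC TuD (-0.65 ± 0.05), and FGA and FGG fell by 0.43 and 0.48 on the log2 scale. In the coagulation list as a whole 6 of 23 rose (3 without miR-17 TuD replicate 1 and 3 without NC TuD replicate 2) and 5 fell. Of 27 acute phase and carrier proteins 6 rose and 9 fell. SAA4, a constitutive serum amyloid, had 27.5, 24.4 and 26.9 CPM in miR-17 TuD and 14.3, 14.96 and 12.02 CPM in NC TuD (0.94 ± 0.09) and moved against ALB, AFP and HAMP. Among 24 apolipoprotein genes 2 rose and 6 fell: MTTP, which loads lipid onto apolipoprotein B, had 97.2, 96.1 and 98.6 CPM in miR-17 TuD and 136, 135 and 138 CPM in NC TuD (-0.49 ± 0.05), APOM fell by 0.39 and APOA2 by 0.27, and LRP1, a remnant receptor, rose from 677 ± 52.2 to 885 ± 44.2 CPM (0.39 ± 0.04). Of 20 oncofetal and progenitor genes 8 fell and 4 rose. GPC3, the surface glypican of liver tumours, had 1879, 1873 and 1922 CPM in miR-17 TuD and 2462, 2445 and 2469 CPM in NC TuD (-0.38 ± 0.03), and IGF2, the fetal growth factor, had 1367, 1518 and 1345 CPM in miR-17 TuD and 1840.4, 1818 and 2031 CPM in NC TuD (-0.43 ± 0.04). LIN28B, the let-7 antagonist, was lower by 0.21 on the log2 scale, while CD24, SPP1, KRT19 and EPCAM rose. Liver transcription factors leaned the other way, with 7 of 31 higher and 1 lower. HNF4A, the main hepatocyte factor, had 302, 309 and 295 CPM in miR-17 TuD and 266, 252 and 269 CPM in NC TuD (0.20 ± 0.04, adjusted p = 0.000315). ZBTB20, a repressor of AFP, rose by 1.39 on the log2 scale from under 1 CPM, and ZHX2, another repressor of AFP, by 0.25.

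Some metabolic lists moved in both directions and others were mostly lower. The shares over all genes tested were 11.0% higher and 8.53% lower. In fatty acid oxidation 8 of 36 (22.2%) rose and 2 (5.56%) fell, with CPT1A and CROT highest. The count was 5 without each of NC TuD replicate 1, miR-17 TuD replicate 1 and miR-17 TuD replicate 2. CAT, catalase, rose from 112 ± 3.20 to 143 ± 5.59 CPM (0.35 ± 0.05). In lipid synthesis 7 of 30 rose and 5 fell (2 to 3 without replicate 1 of either arm or NC TuD replicate 2). AGPAT2, which makes phosphatidic acid, had 15.6, 18.1 and 16.1 CPM in miR-17 TuD and 8.50, 8.66 and 7.63 CPM in NC TuD (1.01 ± 0.11), DGAT1, which completes triglycerides, rose by 0.40, and of the acyl-CoA synthetases ACSL1 rose by 0.39 and ACSL3 fell by 0.35 on the log2 scale. Of 25 genes for iron and other metals 7 rose and 4 fell. The exporter SLC40A1 rose, while hepcidin (HAMP), its inhibitor, ferritin light chain FTL (-0.18 ± 0.03, not called on the deposited log2 matrix) and SLC39A14, a zinc and iron importer (770.3, 743 and 776 CPM in miR-17 TuD and 995, 1008 and 1023 CPM in NC TuD, -0.40 ± 0.04), fell. In amino acid catabolism 14 of 42 fell and 5 rose (3 without replicate 1 of either arm): BCAT1, the cytosolic branched-chain transaminase, fell by 0.31, AASS, of lysine breakdown, by 0.38 and GLUL, glutamine synthetase, by 0.23, against the rise of ALDH8A1. Of 32 genes for serine, folate and amino acid supply 13 fell and 2 rose, or 8 lower without replicate 1 of either arm. ATF4, the transcription factor that drives this group, had 402, 395 and 384 CPM in miR-17 TuD and 456, 437 and 448 CPM in NC TuD (-0.18 ± 0.04). In glycolysis 6 of 35 rose and 6 fell, with PFKP, a phosphofructokinase, higher by 0.58, and ALDOC and the glucose transporter SLC2A1 at -0.70 and -0.26. Of 45 respiratory chain subunits 14 fell (9 without replicate 1 or 2 of NC TuD) and 1 rose, with a median of -0.112. The log2 fold change was below 0 for 41 of the 45, called or not. ATP5G3 and ATP5B of ATP synthase were at -0.22 ± 0.04 and -0.15 ± 0.04.

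Genes induced as feedback on RAS-MAPK signalling were lower in 7 of 21 and higher in 4. DUSP6, the phosphatase of ERK, had 71.8, 69.9 and 75.1 CPM in miR-17 TuD and 96.6, 109.9 and 108 CPM in NC TuD, and SPRY1, a Sprouty inhibitor, had 33.1, 35.8 and 36.2 CPM in miR-17 TuD and 53.2, 48.4 and 46.7 CPM in NC TuD. Both were apart in all libraries (-0.54 ± 0.05 and -0.50 ± 0.07), and ETV4, an ETS factor, fell by 0.25. The number lower was 4 without replicate 1 of either arm and without NC TuD replicate 3, and the number higher was 1 without NC TuD replicate 2 and 2 without miR-17 TuD replicate 2. Of 26 genes for IGF, insulin and growth factor receptors 10 rose (6 without NC TuD replicate 1) and 2 fell. ERBB3, the neuregulin receptor, rose from 279.9 ± 12.1 to 334 ± 4.64 CPM (0.25 ± 0.04) and IRS1, the insulin receptor substrate, by 0.33. Of 23 targets of Wnt and beta-catenin 7 fell and 4 rose, DKK1 and TLE4 among those that fell. Those counts moved to 4 lower without replicate 1 of either arm or NC TuD replicate 3 and to 1 or 2 higher in 5 of the 6 fits that left out a library.

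Most ribosomal protein genes were called lower, by small amounts. Of 42 large-subunit genes 36 fell and 0 rose, with a median log2 fold change of -0.168, and of 30 small-subunit genes 22 fell and 0 rose (median -0.149). The share called lower was 8.53% over all genes tested and 22.1% over those with an average log2 CPM of 7 or more. The median of that average was 9.14 in the large-subunit list and 9.18 in the small-subunit list. RPL11, which also restrains MDM2, had 518, 509 and 500.2 CPM in miR-17 TuD and 602, 637 and 600.4 CPM in NC TuD (-0.27 ± 0.04). RPL6, RPL9 and RPL21 fell by 0.23, 0.22 and 0.24, and RPS12, RPS6 and RPS7 by 0.21, 0.19 and 0.18. Log2 fold changes ran from -0.27 to -0.00084 in the large subunit and from -0.25 to -0.04 in the small subunit, and the arms of RPL11 did not overlap. Summed over the large subunit the level was 25036 to 26067 CPM in miR-17 TuD and 28486 to 28943 CPM in NC TuD. No called member moved by 0.3 or more on the log2 scale. Genes of short coding length fell more often across the whole table: 12.6% of genes with a coding sequence of up to 660 bases fell and 7.44% rose, against 4.44% and 17.4% of those from 2358 bases, and the large-subunit genes had a median of 450 bases. The parts of length and abundance in this result were not tested. Near-identical processed copies exist for many ribosomal protein genes, and reads that aligned to more than 1 place were set aside in the authors' counting, as its summary rows show.

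Other lists of protein production differed in how many members fell. The median of the average log2 CPM ran from 5.71 for mitochondrial ribosomal proteins to 8.39 for translation factors. Of all genes at 7 or more, 22.1% were called lower, and the part of abundance was not tested. Of 22 transfer RNA synthetases 2 fell (6 without miR-17 TuD replicate 3) and 1 rose, a share lower of 9.09% that is near the 8.53% of all genes tested. Of 45 ribosome biogenesis genes 19 fell and 0 rose (median -0.147), with 8 lower when miR-17 TuD replicate 1 was left out, and 11 and 10 when replicates 1 and 2 of NC TuD were. NPM1, nucleophosmin, had 1291, 1264 and 1301 CPM in miR-17 TuD and 1563, 1604 and 1454 CPM in NC TuD (-0.26 ± 0.04), and GNL3, nucleostemin, fell by 0.25. Of 39 translation factors 19 fell and 0 rose, with 11 lower without NC TuD replicate 1 and 12 without miR-17 TuD replicate 1. EEF1A1, which brings aminoacyl-tRNA to the ribosome, had 8601, 8555 and 8515 CPM in miR-17 TuD and 9736, 9695 and 9406 CPM in NC TuD. It was lower in each miR-17 TuD library (-0.17 ± 0.03), a call lost on the deposited log2 matrix (adjusted p = 0.0664). Of 73 mitochondrial ribosomal proteins 12 fell (4 without replicate 1 of either arm, 7 without miR-17 TuD replicate 2). Of 39 RNA processing factors 18 fell and 0 rose, HNRNPA1 (-0.18 ± 0.04) and HNRNPC (-0.17 ± 0.04) among them, and 7 to 10 fell without each of replicates 1 and 2 of either arm. Of 26 genes of the unfolded protein response 12 fell and 0 rose. HSPA5, the chaperone BiP of the endoplasmic reticulum lumen, had 1763, 1706 and 1754 CPM in miR-17 TuD and 2109, 2102 and 2019.6 CPM in NC TuD (-0.25 ± 0.03), and HSP90B1 and PDIA6 fell by 0.19 and 0.14. Of 37 cytosolic chaperone and proteasome genes 14 fell and 0 rose, such as CCT8 (-0.21 ± 0.04) and CCT7 (-0.17 ± 0.04) of the chaperonin, with 5 to 9 lower without each of replicates 1 and 2 of either arm. MYC, the transcription factor that drives many of these genes and the miR-17 cluster, had 233, 240.1 and 219.9 CPM in miR-17 TuD and 260.4, 243 and 261 CPM in NC TuD. The arms did not overlap, but the difference was small (-0.14 ± 0.04, adjusted p = 0.0179), and the call was lost on the deposited log2 matrix and without replicate 1 or 3 of either arm.

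**Figure D5:**
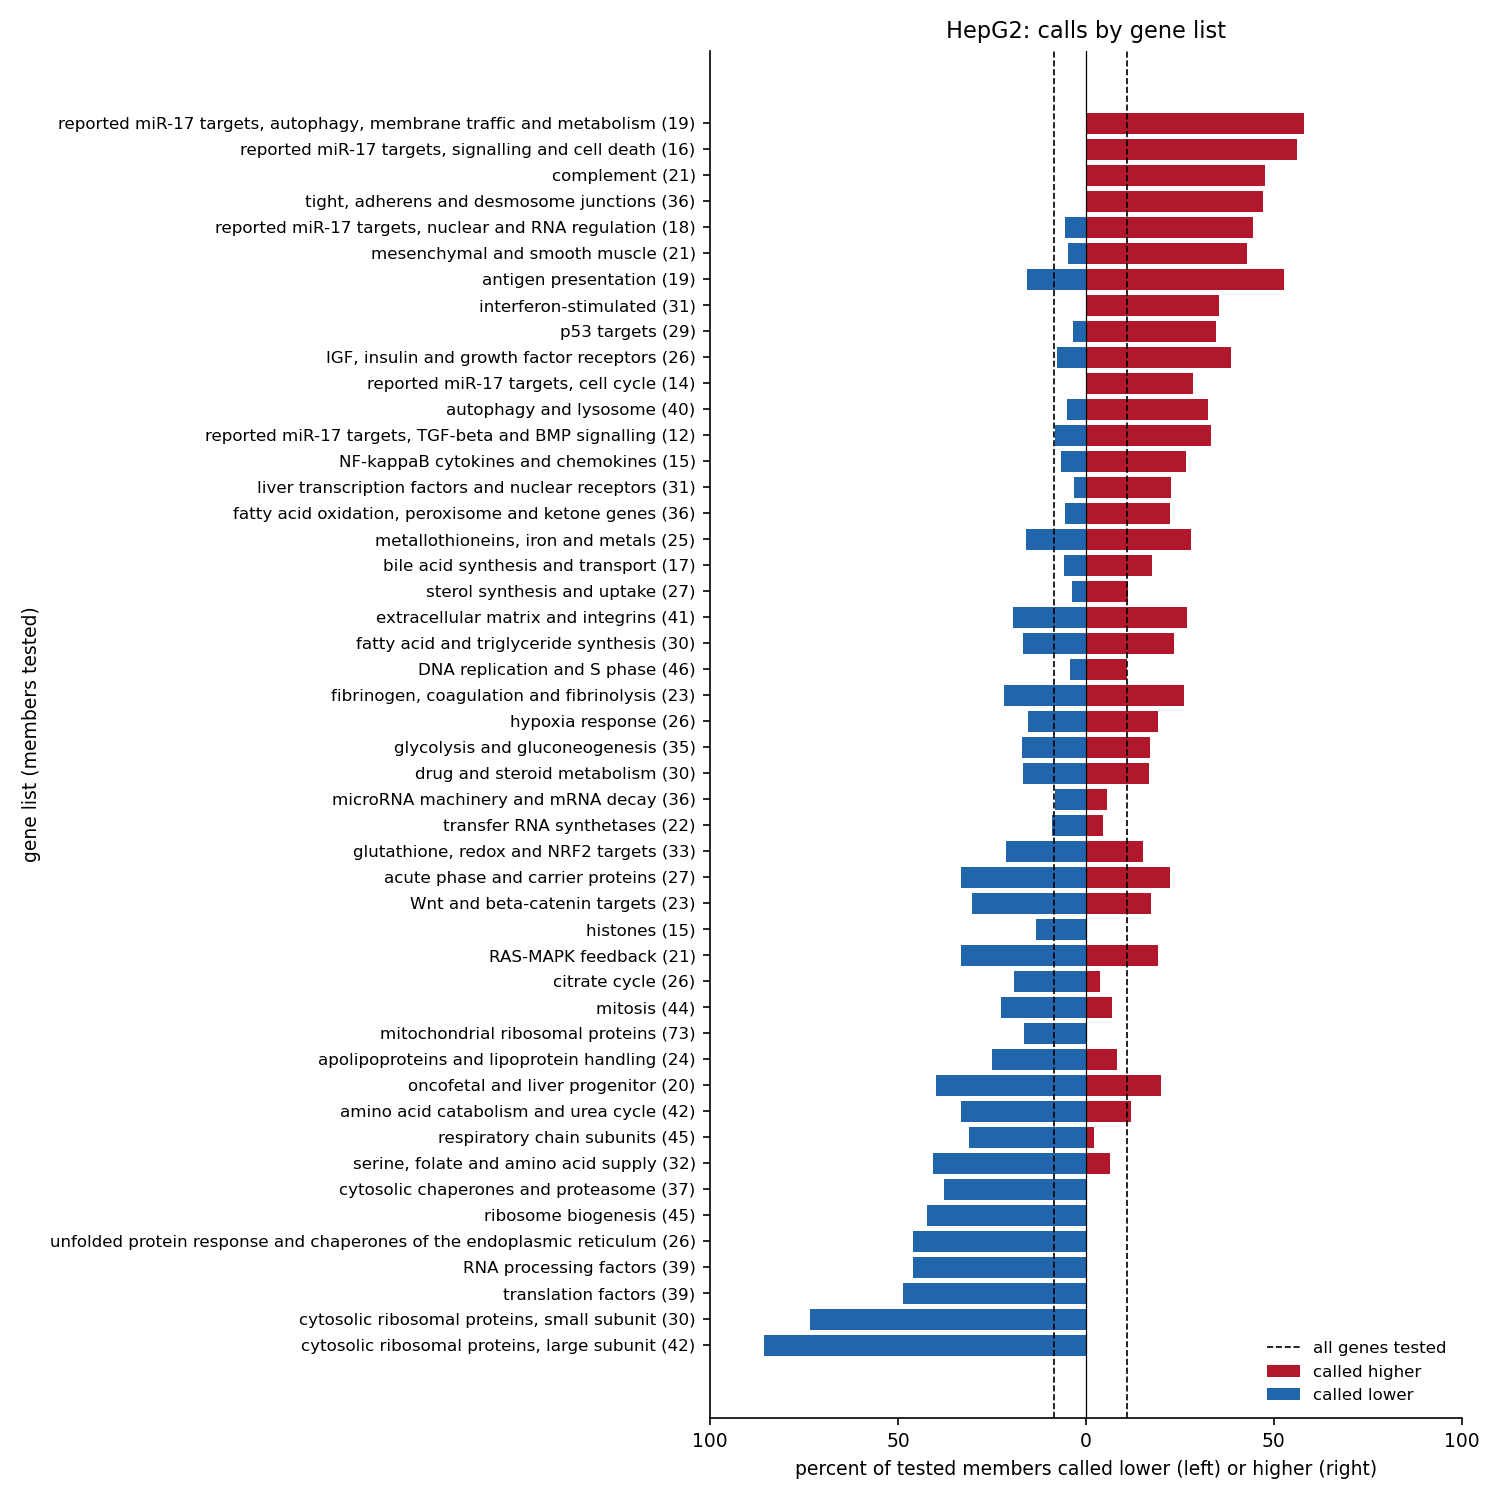
Percent of tested members of each gene list called higher (red, right) or lower (blue, left), with the number tested in brackets and dashed lines at 11.0% and 8.53% for all genes tested. Lists are ordered by the percent higher minus the percent lower, from reported targets in autophagy and traffic at the top (57.9% higher) to large-subunit ribosomal proteins at the bottom (85.7% lower).

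The proliferation lists differed in how many genes passed. Of 46 genes of DNA replication and S phase 5 rose and 2 fell (3 higher without replicate 2 of either arm and 5 lower without miR-17 TuD replicate 3), with RRM2, a ribonucleotide reductase subunit, higher by 0.20, CCNE2, cyclin E2, by 0.41 and the phosphatase gene CDC25A lower from 69.1 ± 1.95 to 59.3 ± 2.18 CPM. The shares of 10.9% higher and 4.35% lower were at and below those of all genes tested, 11.0% and 8.53%. Of 44 mitosis genes 10 fell (22.7%) and 3 rose (6.82%), and 5 fell without each of replicates 1 and 2 of either arm. MKI67, the proliferation marker Ki-67, had 385, 381 and 379.8 CPM in miR-17 TuD and 316, 346 and 327 CPM in NC TuD (0.21 ± 0.04), and MAD2L1, of the spindle checkpoint, had 99.9, 90.5 and 105 CPM in miR-17 TuD and 118, 122 and 109.7 CPM in NC TuD (-0.25 ± 0.05). These moved in opposite directions, each without overlap. Of 29 targets of p53 10 rose (5 and 6 when replicate 1 of miR-17 TuD and of NC TuD was left out) and CCNG1 fell from 212 ± 13.7 to 182 ± 8.41 CPM. FAS, the death receptor, had 28.02, 28.2 and 28.3 CPM in miR-17 TuD and 19.7, 21.6 and 20.7 CPM in NC TuD (0.45 ± 0.08). Of 36 genes of the microRNA machinery and mRNA decay 2 rose and 3 fell (1 without miR-17 TuD replicate 2 and 5 without replicate 3 of that arm). The share higher, 5.56%, was below the 11.0% of all genes tested, and the share lower, 8.33%, was near the 8.53%. TNRC6A, the GW182 protein that joins Argonaute to the decay enzymes, rose by 0.20, and AGO2, the slicing Argonaute, was at 0.27 ± 0.08, a call lost without NC TuD replicate 1 and on the deposited log2 matrix.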

How the data were processed

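RNA sequencing counts per gene of 6 HepG2 libraries were analysed. The counts were deposited by the authors as raw reads per gene. The submitters' processing notes name STAR, SAMtools, HTSeq 0.5.4p5, limma and hg19, whereas the series' design text names other tools and a mouse genome, so the exact steps are uncertain. A matrix of log2 values deposited by the authors served only as an alternative. Summary rows of the counter (unassigned 13.7% to 14.1%, ambiguous 0.587% to 0.619%) were left out.

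Genes passing filterByExpr (minimum count 10) were fitted with edgeR 4.0.16 in R 4.3.3 (TMM scaling, robust quasi-likelihood test, 2 arms, no other term), with Benjamini-Hochberg adjustment over all 11926 genes and a threshold of 0.05. Every adjusted p and log2 fold change (± SE, miR-17 TuD minus NC TuD) comes from that fit unless another is named, and CPM values carry the SD of 3 libraries. On simulated data with 11879 genes for this comparison, 70% of changes of 1.25-fold, 88% of 1.5-fold, 96% of 2-fold and 100% of 3-fold were recovered, with 11 false calls of 188.

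Sites were searched by script in the longest 3′UTR of each gene in GENCODE 29 on GRCh38, matched by symbol, for 11827 tested genes. MicroRNA sequences are from RefSeq (GRCh38.p14). The members and lists were chosen with earlier results of these data known. Named genes were, per direction, the 10 with the smallest adjusted p and the 10 with the largest fold (average log2 CPM of at least 1), the 6 with the largest CPM difference, up to 4 called members of each list, 12 higher and 4 lower genes with an 8mer, and 10 chosen by name. Some genes in these groups are not reported here. Alternatives covered scaling, filter, threshold, DESeq2 1.42.0, the block, all 10 libraries, the log2 matrix and leaving out each library.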

Additional observations from a re-analysis of the deposited data

How the results depend on the processing

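The number of genes called was 2329 and ran from 1536 to 2554 when each library was left out in turn. Higher calls ran from 916 to 1414 and lower calls from 616 to 1140. At an adjusted p below 0.01 there were 1356 calls, 820 higher and 536 lower. The deposited log2 matrix gave 677 lower calls in place of 1017, and DESeq2 gave 1626 calls. Deviations of same-numbered libraries from their arm means had correlations of 0.0657, -0.375 and -0.347 over 9685 genes. Those of other-numbered pairs ran from -0.126 to 0.421 (miR-17 TuD replicate 3 with NC TuD replicate 2). Deviations within arms of 3 libraries depend on each other, so these values cannot settle whether the arms were paired. With the replicate block, 1590 genes were called, 979 higher and 611 lower. The number of 8mer genes called higher was 167 and ran from 126 to 175 over all alternatives. Of 222 called genes named by the rule, 192 kept their call under every alternative run. The sign of E2F1, which was not called, turned without miR-17 TuD replicate 2 (-0.0172) and without NC TuD replicate 2 (-0.0086), in a range up to 0.0764 over libraries left out. The cause was not tested. Depth limits genes near the floor of 0.201 to 0.233 CPM.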

Other observations

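Genes of autophagy and the lysosome were higher in 13 of 40 tested (32.5%) and lower in 2 (5.0%), with a median log2 fold change of 0.042. A miR-17 8mer was found in 9 of the 40. The number higher was 8 when replicate 1 of either arm was left out and 7 when replicate 2 of NC TuD was. Without miR-17 TuD replicate 3, 4 genes fell. Of 27 sterol synthesis genes 3 rose (1 without replicate 2 of either arm) and 1 fell (3 without miR-17 TuD replicate 3). Those shares, 11.1% higher and 3.70% lower, were at and below the 11.0% and 8.53% of all genes tested. Of 33 genes of glutathione and redox control 5 rose and 7 fell, 4 of them lower without replicate 1 of either arm or NC TuD replicate 2.

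Shares of calls varied by chromosome, with no test of the difference. Of 685 tested genes on chromosome 11, 18.8% were called higher and 3.36% lower, with a median of 0.065, and of 583 on chromosome 16, 18.2% and 4.80% (median 0.066). Of 1219 on chromosome 1, 7.96% were higher and 11.8% lower (median -0.024). In windows of 25 neighbouring genes, 21 of 22 on chromosome 11 and 16 of 19 on chromosome 16 had a median above 0, against 117 of 335 elsewhere. Without chromosomes 1, 11 and 16, a choice made after seeing the data, 25.2% of 535 genes with an 8mer rose and 4.30% fell (median 0.067), against 8.98% and 9.43% of 4646 genes without a match (median -0.007).

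The second principal component, with 19.3% of the variance, set miR-17 TuD replicate 3 and NC TuD replicate 2 apart from miR-17 TuD replicate 2 and NC TuD replicate 3.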
